A study of Mus musculus with 11 samples.

Results

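Transcripts of 5 chemokine ligands, Ccl1, Ccl5, Xcl1, Cxcl2 and Cxcl10, were read on 11 arrays of a custom glycan gene chip that held 3 sorted kinds of CD4+ T cell. Each gene was found through the RefSeq transcript in its probe set name, with the row of highest mean over the 11 arrays to be taken where a gene had several. Each of the 5 genes had 1 probe set, so that mean decided nothing, and it was 3.86 for Cxcl2, 4.88 for Ccl1, 7.41 for Xcl1, 10.03 for Ccl5 and 6.65 for Cxcl10 on the log2 scale. They make 5 of the 909 genes and 5 of the 1246 probe sets with values. The genes were chosen with earlier results of these data known, so the tests below describe these arrays and are not independent evidence.

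All cells were sorted from spleens of female C57BL/6 mice. Treg cells are CD4+ CD25+ CD45RBlow (n = 3, replicates 1, 2 and 4), and their labels give no age. The CD25- CD45RBlow cells, called activated or memory in the labels (n = 4), and the CD25- CD45RBhigh cells, called naive (n = 4), came from naive mice of 4 to 6 weeks, so age and population cannot be told apart in the comparisons with Treg cells. The design text speaks of fresh and of activated cells, while the labels give only the 3 sorted populations. No label says whether replicates were separate animals, so p-values measure the spread between these samples, which may be technical.

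Chemokines are small secreted proteins that draw leukocytes along a gradient by binding receptors coupled to G proteins on the target cell. They are grouped by the spacing of their first cysteines into the CC, CXC, XC and CX3C families. Much of what is secreted is held on glycosaminoglycan chains of the tissue and of cell surfaces. CD4+ T cells make some of these proteins after activation, and effector and regulatory cells differ in which receptors they carry.

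Values are log2 expression per probe set, so a difference of 1 is a factor of 2. Brightness depends on the probes of each set, so levels are compared between populations for 1 gene and never between genes. In bulk RNA, fewer cells making a transcript and less transcript per cell cannot be told apart. Il2ra, which encodes CD25, averaged 9.84 in Treg cells, 6.17 in CD45RBlow cells and 4.07 in CD45RBhigh cells, and the sort on CD25 fixes that Treg cells lead. Cd44, an adhesion receptor of memory cells, averaged 9.25, 9.31 and 7.81 in the same order of populations, and Ccr7, a lymph node homing receptor, 10.37, 10.69 and 11.38. Cd2 was the 1 measured gene of 8 pan-T and CD4 markers, so the CD4 gate itself was not checked. The 11 array medians spanned 4.85 to 4.94. With 3 or 4 arrays a population, precision is set by that number.

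The 5 genes followed 3 patterns. Cxcl2 and Ccl1 were highest in Treg cells, Xcl1 and Ccl5 were highest in CD45RBlow cells, and Cxcl10 was high in both populations with low CD45RB. Promoter sequence from RefSeq (GRCm38.p6) was given for 4 of the 5 genes and not for Ccl5. It is shown so that these patterns can be read beside the sequence next to each start site. Each line holds the 250 bases before the start site, on the strand of the gene and 5′ to 3′. Capitals mark matches, on either strand, to the NF-kB motif, or in the first stretch of capitals in Cxcl10 to GAAA, any 2 bases and GAAA again, the core of the interferon-stimulated response element.
Cxcl2 (chr5:90903649-90903898, + strand): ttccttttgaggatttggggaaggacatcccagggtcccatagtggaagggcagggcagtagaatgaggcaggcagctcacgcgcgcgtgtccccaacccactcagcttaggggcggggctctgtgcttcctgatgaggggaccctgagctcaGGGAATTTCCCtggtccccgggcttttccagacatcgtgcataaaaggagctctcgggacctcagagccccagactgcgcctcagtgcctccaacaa
Ccl1 (chr11:82179813-82180062, - strand): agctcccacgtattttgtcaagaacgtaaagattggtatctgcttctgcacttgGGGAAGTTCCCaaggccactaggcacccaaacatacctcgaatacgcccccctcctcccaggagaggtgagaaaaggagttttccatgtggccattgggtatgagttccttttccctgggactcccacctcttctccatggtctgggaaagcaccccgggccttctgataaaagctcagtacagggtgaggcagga
Xcl1 (chr1:164935523-164935772, - strand): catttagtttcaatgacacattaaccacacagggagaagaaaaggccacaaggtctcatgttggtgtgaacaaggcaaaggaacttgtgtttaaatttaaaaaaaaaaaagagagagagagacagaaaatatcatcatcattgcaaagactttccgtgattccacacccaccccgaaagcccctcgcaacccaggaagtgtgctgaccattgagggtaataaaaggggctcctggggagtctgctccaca
Cxcl10 (chr5:92348890-92349139, - strand): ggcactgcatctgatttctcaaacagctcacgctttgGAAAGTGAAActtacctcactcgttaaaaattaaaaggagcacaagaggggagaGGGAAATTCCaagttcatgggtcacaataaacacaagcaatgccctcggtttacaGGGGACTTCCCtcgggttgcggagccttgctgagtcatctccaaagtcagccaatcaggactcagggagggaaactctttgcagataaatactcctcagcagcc

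NF-kB is the family of transcription factors that antigen receptor and inflammatory signals activate. Its motif was taken as GGGRNNYYCC, with R for A or G, Y for C or T and N for any base. It occurred in 3 of these 4 windows, and in 7.25% of all 32851 promoter windows of the same length. In Cxcl2 the matched bases were GGGAATTTCC, from position -97 to -88 with the start site as the base after -1, and an overlapping match on the other strand covered -96 to -87. In Ccl1 overlapping matches on both strands ran from -196 to -186. Cxcl10 had a match from -159 to -150 and overlapping ones from -104 to -94, and its GAAAGTGAAA lay at -213 to -204. The interferon element core occurred in 2.98% of all windows. In the Xcl1 window neither motif was found. No other motif was searched and the genes were not drawn at random, so these shares are no test of enrichment. A match is a description of the sequence and does not show that a factor binds there.

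Between Treg and CD45RBhigh cells 3 of the 5 genes rose, 0 fell and 2 did not pass the test, which was limma with Benjamini-Hochberg adjustment over all probe sets and a threshold of 0.05. Of all probe sets 18.9% passed in this comparison, 10.3% as higher and 8.59% as lower. Between Treg and CD45RBlow cells 2 rose, 2 fell and 1 did not pass, against 12.5% of all probe sets (6.74% as higher, 5.78% as lower). Between CD45RBlow and CD45RBhigh cells 3 rose, 0 fell and 2 did not pass, against 12.6% of all probe sets (7.62% as higher, 4.98% as lower). The last 2 shares are 156 and 157 probe sets, and with the replicate number as a block they became 245 and 271. In the last comparison 95 were higher and 62 lower, which turned to 98 and 129 after a further quantile normalization. The median difference of the 5 genes was 1.40, 0.11 and 1.57 on the log2 scale in the 3 comparisons in that order, beside -0.04, 0.04 and -0.08 over all probe sets. Each pair of comparisons shares 1 population, so their results for a gene are not independent of each other.

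**Figure D1:**
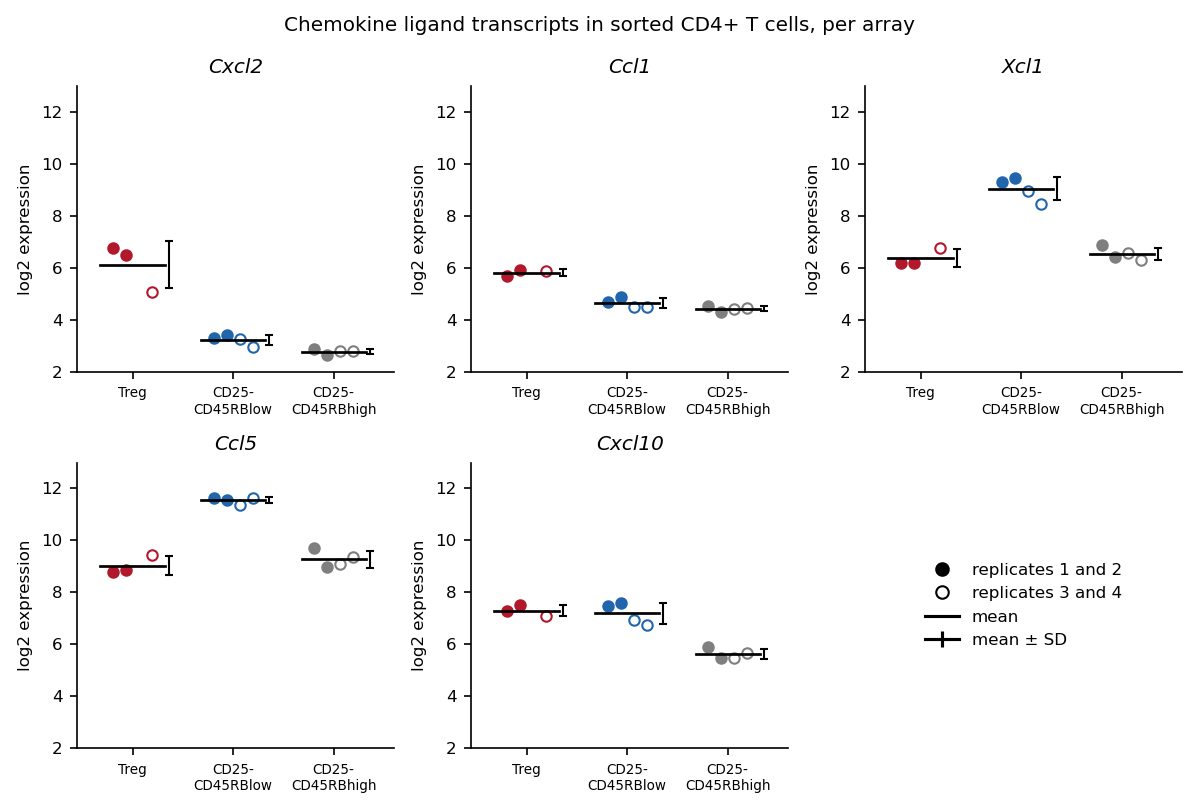
Log2 expression of the 5 chemokine ligands (vertical axis) in each array of the 3 sorted populations (horizontal axis). Filled points are replicates 1 and 2, open points replicates 3 and 4, horizontal lines means and bars 1 SD on each side. Cxcl2 and Ccl1 sit highest in Treg arrays, Xcl1 and Ccl5 in CD45RBlow arrays, and Cxcl10 is lowest in CD45RBhigh arrays.

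Cxcl2, a CXC chemokine of the mouse that attracts neutrophils through the receptor Cxcr2, lies at chr5:90903899-90905938. It read 6.78, 6.51 and 5.08 in Treg replicates 1, 2 and 4. It read 3.30, 3.42, 3.27 and 2.95 in CD45RBlow replicates 1 to 4, and 2.88, 2.65, 2.80 and 2.79 in CD45RBhigh replicates 1 to 4. Every Treg array lay above every CD25- array, with the lowest Treg array 1.66 above the highest CD45RBlow array. Means were 6.12 ± 0.91 in Treg cells (SD, n = 3), 3.23 ± 0.20 in CD45RBlow cells and 2.78 ± 0.10 in CD45RBhigh cells (SD, n = 4 each).

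The difference of Treg from CD45RBhigh cells was 3.34 (SE 0.31, adjusted p = 1.24e-05, limma), a fold of 10.1 with a 95% interval of 6.27 to 16.4, and it was the 9th highest of the 1246 probe sets. From CD45RBlow cells Treg cells differed by 2.89 (SE 0.31, adjusted p = 7.60e-05), a fold of 7.40 and the 4th highest. Both CD25- means lie under 3.64, the first quartile of all values, and no detection call was used here, so these sizes may be understated. CD45RBlow cells differed from CD45RBhigh cells by 0.45 (95% interval -0.19 to 1.10, adjusted p = 0.317). This last difference passed when the CD45RBlow and CD45RBhigh arrays were fitted without the Treg arrays (adjusted p = 0.0216) or without Treg replicate 4 alone (adjusted p = 0.0179).

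Treg replicate 4 stood apart in Cxcl2, and the spread of the Treg arrays exceeded that of 99.9% of probe sets. Within replicates 1 and 2 the difference of Treg from CD45RBhigh cells was 3.88, and within replicates 3 and 4, where Treg has 1 array, 2.28. These sizes differed from each other by 1.59 (SE 0.21, adjusted p = 0.0182 over all probe sets). That error comes from the other arrays, since the lone Treg replicate 4 is assumed to vary as they do, so this describes 1 array that stood apart. Against CD45RBlow cells the values were 3.28 and 1.97, with an adjusted p of 0.0555 for their difference. Without Treg replicate 4 the difference from CD45RBhigh cells was 3.86 and that from CD45RBlow cells 3.41. The sets are known only by their replicate numbers, and no label says what they share.

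Ccl1, a CC chemokine that binds the receptor Ccr8, lies at chr11:82176666-82179812. It read 5.68, 5.92 and 5.86 in Treg replicates 1, 2 and 4. It read 4.67, 4.89, 4.51 and 4.48 in CD45RBlow replicates 1 to 4, and 4.52, 4.29, 4.44 and 4.45 in CD45RBhigh replicates 1 to 4. The Treg arrays again lay above all CD25- arrays, by 0.78 at the nearest, while the CD25- populations overlapped. Treg replicate 4 did not stand apart here, in contrast with its low Cxcl2 value.

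Ccl1 averaged 5.82 ± 0.13 in Treg cells (SD, n = 3), 4.64 ± 0.19 in CD45RBlow cells and 4.42 ± 0.10 in CD45RBhigh cells (SD, n = 4 each). Treg cells were 2.63-fold above CD45RBhigh cells (log2 difference 1.40, SE 0.11, adjusted p = 2.15e-06, limma) and 2.27-fold above CD45RBlow cells (1.18, SE 0.11, adjusted p = 1.75e-05). CD45RBlow cells differed from CD45RBhigh cells by 0.22 (95% interval 0.0002 to 0.43, adjusted p = 0.175). Within replicates 1 and 2 and within replicates 3 and 4 Treg cells differed from CD45RBhigh cells by 1.39 and 1.42, and from CD45RBlow cells by 1.02 and 1.37.

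Xcl1 is the single XC chemokine of the mouse, and its receptor Xcr1 marks dendritic cells that present antigen to CD8+ T cells. It lies at chr1:164931644-164935522. It read 6.20, 6.18 and 6.77 in Treg replicates 1, 2 and 4. It read 9.30, 9.45, 8.96 and 8.47 in CD45RBlow replicates 1 to 4, and 6.86, 6.42, 6.57 and 6.31 in CD45RBhigh replicates 1 to 4. The CD45RBlow arrays lay above all others, at least 1.61 above the nearest CD45RBhigh array and 1.70 above the nearest Treg array.

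Xcl1 averaged 6.38 ± 0.33 in Treg cells (SD, n = 3), 9.05 ± 0.43 in CD45RBlow cells and 6.54 ± 0.24 in CD45RBhigh cells (SD, n = 4 each). Treg cells differed from CD45RBlow cells by -2.66 (SE 0.23, adjusted p = 1.56e-05, limma), which is 6.34-fold lower in Treg cells and the 5th lowest difference of all probe sets. CD45RBlow cells were 5.67-fold above CD45RBhigh cells (2.50, SE 0.21, adjusted p = 1.27e-05). Treg and CD45RBhigh cells overlapped and differed by -0.16 (95% interval -0.67 to 0.35, adjusted p = 0.721). Treg differed from CD45RBlow cells by -3.19 within replicates 1 and 2 and by -1.95 within replicates 3 and 4. The 2 sizes were not told apart over all probe sets (adjusted p = 0.289). CD45RBlow differed from CD45RBhigh cells by 2.73 and 2.28 in these sets.

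Ccl5, the CC chemokine known as RANTES, binds Ccr1 and Ccr3 and is stored by memory and effector T cells. It lies at chr11:83525778-83530518. It read 8.79, 8.86 and 9.44 in Treg replicates 1, 2 and 4. It read 11.62, 11.56, 11.37 and 11.64 in CD45RBlow replicates 1 to 4, and 9.69, 8.96, 9.08 and 9.36 in CD45RBhigh replicates 1 to 4. The CD45RBlow arrays formed a tight group at the top, and the Treg and CD45RBhigh arrays lay in 1 range.

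Ccl5 averaged 9.03 ± 0.36 in Treg cells (SD, n = 3), 11.55 ± 0.12 in CD45RBlow cells and 9.27 ± 0.33 in CD45RBhigh cells (SD, n = 4 each). Treg cells differed from CD45RBlow cells by -2.52 (SE 0.19, adjusted p = 4.07e-06, limma), 5.73-fold lower in Treg cells. CD45RBlow cells were 4.83-fold above CD45RBhigh cells (2.27, SE 0.17, adjusted p = 6.99e-06). Treg and CD45RBhigh cells differed by -0.24 (95% interval -0.66 to 0.17, adjusted p = 0.464). Treg differed from CD45RBlow cells by -2.76 within replicates 1 and 2 and -2.07 within replicates 3 and 4, and CD45RBlow from CD45RBhigh cells by 2.26 and 2.29.

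Cxcl10, a CXC chemokine that interferons induce in many cell types and that binds Cxcr3, lies at chr5:92346638-92348889. It read 7.30, 7.50 and 7.10 in Treg replicates 1, 2 and 4. It read 7.49, 7.59, 6.93 and 6.76 in CD45RBlow replicates 1 to 4, and 5.90, 5.46, 5.48 and 5.67 in CD45RBhigh replicates 1 to 4. Treg and CD45RBlow arrays overlapped, and both lay above every CD45RBhigh array, by 1.20 and 0.87 at the nearest.

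Cxcl10 averaged 7.30 ± 0.20 in Treg cells (SD, n = 3), 7.19 ± 0.40 in CD45RBlow cells and 5.63 ± 0.20 in CD45RBhigh cells (SD, n = 4 each). Treg cells were 3.19-fold above CD45RBhigh cells (1.67, SE 0.20, adjusted p = 8.63e-05, limma), and CD45RBlow cells were 2.96-fold above them (1.57, SE 0.18, adjusted p = 0.000144). Treg and CD45RBlow cells differed by 0.11 (95% interval -0.33 to 0.54, adjusted p = 0.803). Within replicates 1 and 2 and within replicates 3 and 4 Treg differed from CD45RBhigh cells by 1.72 and 1.52, and CD45RBlow from CD45RBhigh cells by 1.86 and 1.28.

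Counted without a model, the populations did not overlap for 3 of the 5 genes between Treg and CD45RBhigh cells, where 25.0% of all probe sets did not overlap. Between Treg and CD45RBlow cells this held for 4 of 5 genes, against 21.3%, and between CD45RBlow and CD45RBhigh cells for 4 of 5, against 17.8%. In the last case the fourth gene was Cxcl2, whose populations were 0.07 apart.

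Markers of other cells that could have entered the gates were read beside these genes as summed linear intensities. The 15 measured of 26 myeloid and dendritic markers summed to 209.9 to 227 in Treg arrays, 203 to 217 in CD45RBlow arrays and 214 to 235 in CD45RBhigh arrays. In each population 9 of the 15 had a mean under the first quartile, and limma called 0 of them between Treg and CD45RBlow cells, with 0 at an unadjusted p under 0.05. Between Treg and CD45RBhigh cells 1 of them, Cd209a, was lower in Treg cells (-0.24), and between CD45RBlow and CD45RBhigh cells Cd209a (-0.26), Siglech (-0.53) and Clec10a (-0.31) were lower in CD45RBlow cells. Of the 3 measured of 8 B cell markers the sum was 372 to 432 in Treg, 243 to 313 in CD45RBlow and 255 to 318 in CD45RBhigh arrays, so it was higher in the population with most Cxcl2 and Ccl1. Cd72 alone made most of that sum in each population. Cd72 differed by 0.85 and Cd22 by -0.30 between Treg and CD45RBlow cells. Between Treg and CD45RBhigh cells both were higher in Treg cells, by 0.54 (adjusted p = 0.0173) and 0.29 (adjusted p = 0.0181, limma). Fcer2a, the other measured B cell marker, differed by -0.09 there and did not pass in any comparison. In each population 1 of the 3 had a mean under the first quartile. Selp, the 1 measured of 6 platelet and erythroid markers, had a linear intensity of 30.9 to 39.0 in Treg, 22.8 to 27.6 in CD45RBlow and 24.5 to 27.8 in CD45RBhigh arrays. Cd74 and Cd83, surface molecule genes outside these lists, were higher in Treg than in CD45RBhigh cells, by 2.46 and 5.73. Against CD45RBlow cells they were higher in Treg cells by 1.94 and 2.65. The part of B cells, platelets or other cells in the Cxcl2 and Ccl1 values was not tested.

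The 7 measured of 13 natural killer and CD8 markers summed to 77.4 to 87.6 in Treg, 341 to 470.0 in CD45RBlow and 577 to 776 in CD45RBhigh arrays. Klrd1, a lectin-like receptor chain, averaged 3.93, 8.28 and 9.22 on the log2 scale, and 3 of the 7 markers had a mean under the first quartile in each population. Klrd1 alone made most of the sum in both CD25- populations. The sum therefore mainly follows Klrd1 and is not a separate reading of all 7 markers. Xcl1 and Ccl5 are also made by natural killer and CD8 T cells. Between Treg and CD45RBlow cells the sum and both chemokines were lower in Treg cells, and so were Klrd1 (-4.35) and Klrc1 (-0.99, adjusted p = 0.00104, limma). Between CD45RBlow and CD45RBhigh cells the sum was lower in CD45RBlow cells with Klrd1 (-0.94) and Klra4 (-0.22, adjusted p = 0.0145, limma). Both chemokines were higher there together with Klrc1 (0.59, adjusted p = 0.0188). Between Treg and CD45RBhigh cells the sum, Klrd1 (-5.29), Klra8 (-0.40) and Klra3 (-0.45) were lower in Treg cells. Neither chemokine passed in that comparison. The part of natural killer and CD8 cells in the Xcl1 and Ccl5 values was not tested.

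Receptors that these chemokines bind were on the same chip, and 7 of 7 listed receptor genes were measured. Between Treg and CD45RBhigh cells 3 rose and 1 fell, between Treg and CD45RBlow cells 2 rose and 1 fell, and between CD45RBlow and CD45RBhigh cells 3 rose and 1 fell, beside 18.9%, 12.5% and 12.6% of all probe sets. Their median differences were 0.16, 0.17 and 0.07 in the 3 comparisons, beside -0.04, 0.04 and -0.08 over all probe sets. Ccr8, which binds Ccl1, read 6.84, 7.29 and 7.08 in Treg replicates 1, 2 and 4. It read 5.57, 5.72, 5.49 and 5.45 in CD45RBlow replicates 1 to 4, and 4.35, 4.56, 4.37 and 4.62 in CD45RBhigh replicates 1 to 4. The receptor was thus high where its ligand Ccl1 was high, and it also separated the CD25- populations, which Ccl1 did not. Treg cells differed by 1.51 from CD45RBlow cells (SE 0.11, adjusted p = 4.07e-06) and CD45RBlow from CD45RBhigh cells by 1.08 (SE 0.10, adjusted p = 2.75e-05, limma).

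Cxcr3, the receptor of Cxcl10, read 9.26, 9.60 and 9.33 in Treg replicates 1, 2 and 4. It read 11.02, 11.09, 10.73 and 10.89 in CD45RBlow replicates 1 to 4, and 7.59, 7.19, 7.30 and 7.77 in CD45RBhigh replicates 1 to 4. The 3 populations were fully separate, and the receptor differed between Treg and CD45RBlow cells (-1.54, SE 0.15, adjusted p = 2.77e-05, limma) where Cxcl10 did not pass.

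Ccr3 averaged 4.31, 3.74 and 3.25 in Treg, CD45RBlow and CD45RBhigh cells, the last under the first quartile. Treg cells differed from CD45RBhigh cells by 1.07 (adjusted p = 1.11e-05, limma) and from CD45RBlow cells by 0.57 (adjusted p = 0.00244). CD45RBlow cells differed from CD45RBhigh cells by 0.50 (adjusted p = 0.00365). Ccr3 was thus higher in Treg than in CD45RBlow cells, where its ligand Ccl5 went the other way. Ccr1 stayed under the first quartile in each population, at 2.72, 2.55 and 2.56. Xcr1, the receptor of Xcl1, averaged 3.67, 3.67 and 3.60, close to the first quartile, with differences of 0.08, 0.01 and 0.07 in the 3 comparisons that did not pass. Cxcr2, which binds Cxcl2, averaged 5.11, 4.87 and 5.10 and did not pass in any comparison. Cxcr1, a neutrophil receptor, averaged 4.49, 4.58 and 5.11 and was lower in Treg than in CD45RBhigh cells by a difference of -0.63 (adjusted p = 0.000188), and lower in CD45RBlow than in CD45RBhigh cells by one of -0.54 (adjusted p = 0.000511). For Xcl1 with Xcr1 and for Cxcl2 with Cxcr2, the ligand differed between populations where the receptor transcript did not pass the test.

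**Figure D2:**
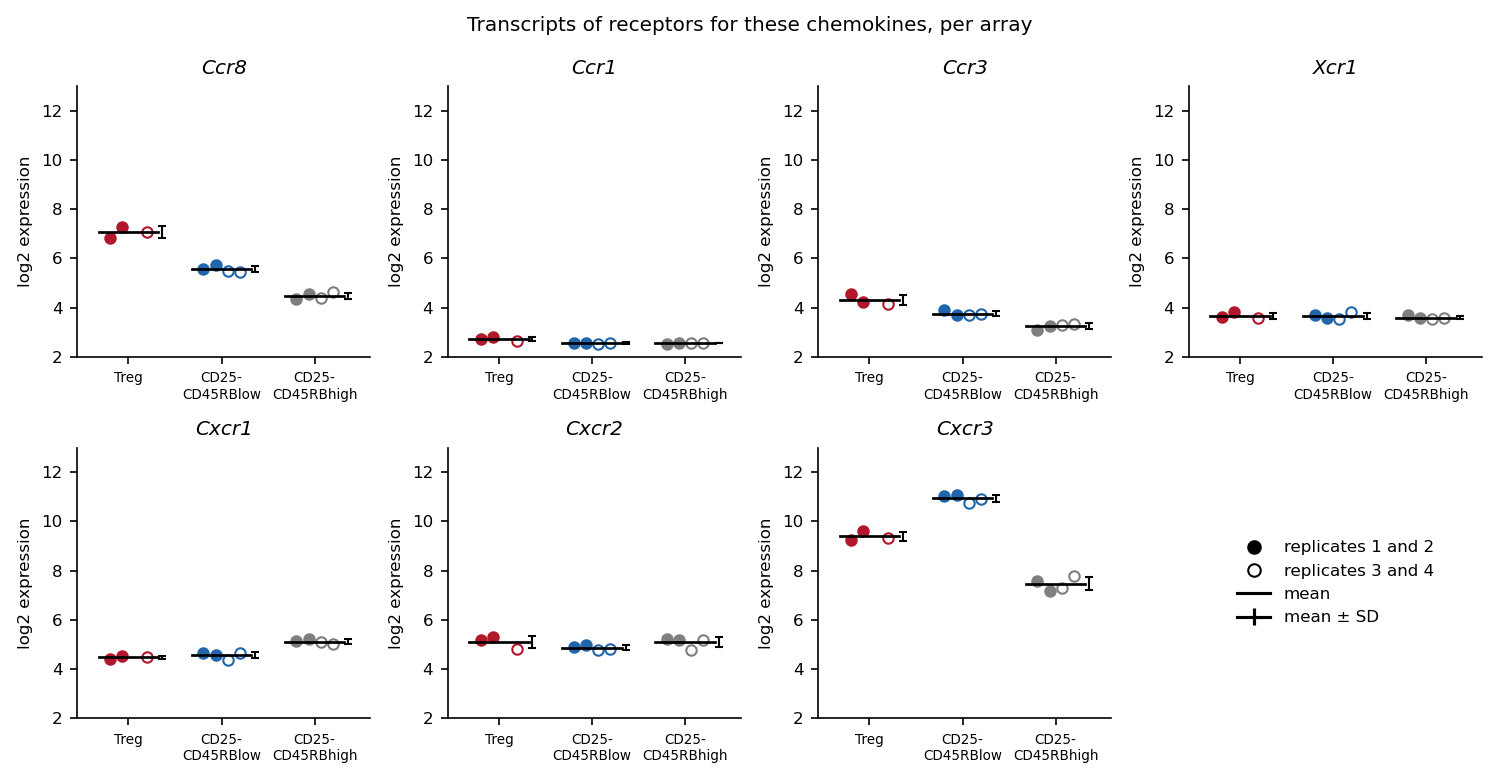
Log2 expression of 7 receptors of these chemokines (vertical axis) in each array of the 3 populations (horizontal axis). Filled points are replicates 1 and 2, open points replicates 3 and 4, lines means and bars 1 SD on each side. Ccr8 is highest in Treg arrays and Cxcr3 in CD45RBlow arrays, while Xcr1 and Cxcr2 overlap between populations.

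Of 36 other chemokine ligands 24 were measured. Between Treg and CD45RBhigh cells 2 rose and 1 fell, with differences from -0.46 to 0.88 and a median of -0.02, and before adjustment 3 stood higher and 3 lower at a p under 0.05, which 30.0% of all probe sets met. Between Treg and CD45RBlow cells 1 rose and 0 fell, with a range of -0.41 to 0.67. Without adjustment 3 were higher and 1 lower, against 22.6% of all probe sets. Between CD45RBlow and CD45RBhigh cells 0 rose and 1 fell, with 0 higher and 3 lower without adjustment, against 28.4% of all probe sets. After adjustment 18.9%, 12.5% and 12.6% of all probe sets passed in the 3 comparisons in that order. With the replicate block Ccl25 (-0.37, adjusted p = 0.0170) and Cx3cl1 (0.28, adjusted p = 0.0323) also passed between Treg and CD45RBlow cells, and Ccl21a (-0.24, adjusted p = 0.0385) between CD45RBlow and CD45RBhigh cells. The 5 genes above were picked with these differences known, so that they stand apart from the other ligands is no finding.

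Ccl20, the ligand of Ccr6, was the other ligand that rose in Treg cells against both CD25- populations. It read 4.53, 4.06 and 3.66 in Treg replicates 1, 2 and 4, and averaged 3.41 ± 0.08 in CD45RBlow cells and 3.20 ± 0.15 in CD45RBhigh cells (SD, n = 4 each), both under the first quartile. Treg replicate 4 was the lowest Treg array for Ccl20 as it was for Cxcl2. Treg cells differed from CD45RBhigh cells by 0.88 (SE 0.16, adjusted p = 0.00257, limma) and from CD45RBlow cells by 0.67 (SE 0.16, adjusted p = 0.0194). The call against CD45RBlow cells ended without Treg replicate 1 (adjusted p = 0.0512) or 2 (0.0593). Ccr6, its receptor, averaged 9.53, 8.24 and 6.22 in Treg, CD45RBlow and CD45RBhigh cells.

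Ccl25, a gut and thymus chemokine, fell in Treg against CD45RBhigh cells by a difference of -0.46 (adjusted p = 0.0323). That call ended without any 1 of Treg replicates 1, 2 and 4 or CD45RBhigh replicates 3 and 4, where its adjusted p ran from 0.0519 to 0.115. Cxcl13, a B cell attractant, rose by 0.20 (adjusted p = 0.0442), but it lost the call with the replicate block (adjusted p = 0.0780) and without any array but CD45RBlow replicates 3 or 4. Ccl24, an eosinophil attractant, was lower in CD45RBlow than in CD45RBhigh cells by a difference of -0.27 (adjusted p = 0.0401) and lost the call without Treg replicate 2, any CD45RBlow replicate or CD45RBhigh replicate 1, 2 or 3 (adjusted p 0.0565 to 0.0981). Ccl3 and Ccl4, which activated T cells also make, averaged 4.14 and 5.41 in Treg, 4.28 and 5.44 in CD45RBlow and 4.34 and 5.26 in CD45RBhigh cells and did not pass in any comparison. They were picked out after their values were seen.

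**Figure D3:**
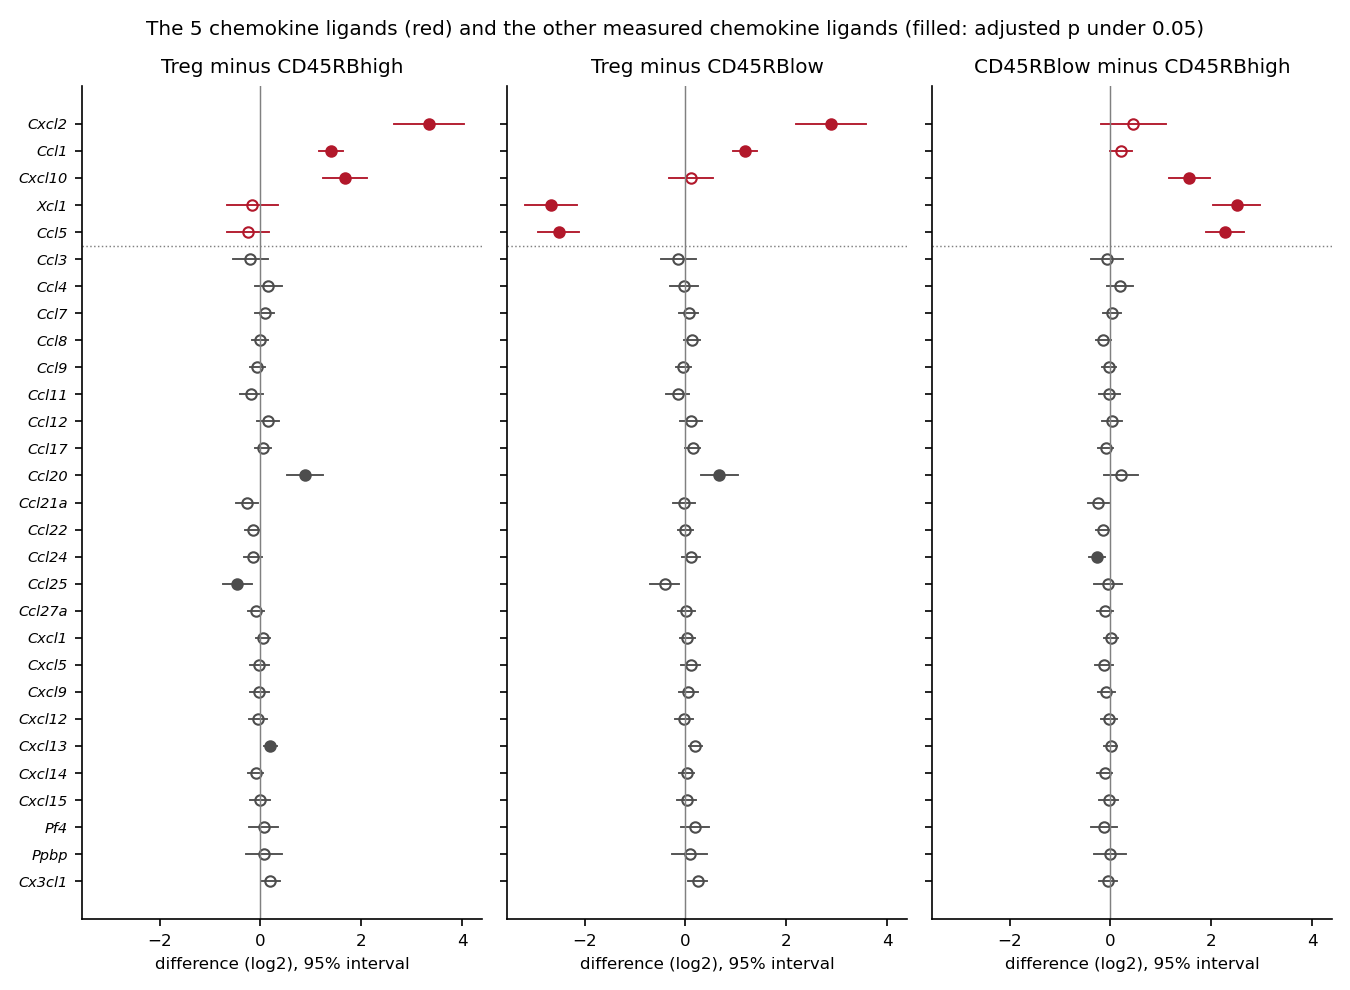
Differences between populations on the log2 scale (horizontal axis, lines are 95% intervals) for the 5 chemokine ligands in red and the 24 other measured ligands in grey (rows), in 3 comparisons. Filled points passed an adjusted p of 0.05, and outside the red rows these are Ccl20, Ccl25, Cxcl13 and Ccl24 only.

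Among 12 other chemokine receptors measured, 6 rose and 1 fell between Treg and CD45RBhigh cells, 1 rose and 2 fell between Treg and CD45RBlow cells, and 7 rose and 1 fell between CD45RBlow and CD45RBhigh cells. Over all probe sets 18.9%, 12.5% and 12.6% passed in these comparisons. Cxcr6, whose ligand is the membrane-bound Cxcl16, averaged 7.83 in Treg, 11.19 in CD45RBlow and 7.43 in CD45RBhigh cells. It was thus highest in CD45RBlow cells, as Xcl1 and Ccl5 were. Unlike theirs, its difference of Treg from CD45RBhigh cells was positive (0.41, adjusted p = 0.113, limma). That difference passed without CD45RBhigh replicate 1 (0.56, adjusted p = 0.00486). Ccr2 averaged 8.44, 8.89 and 5.54, and Cxcr5, the follicle homing receptor, 8.18, 7.94 and 5.84, so both were high in the 2 populations with low CD45RB as Cxcl10 was. With the replicate block Ccr2 (-0.58, adjusted p = 0.0184), Ccr9 (-0.80, adjusted p = 0.00140) and Cx3cr1 (-0.56, adjusted p = 0.0227) also fell in Treg against CD45RBlow cells, and Cx3cr1 rose in CD45RBlow against CD45RBhigh cells (0.61, adjusted p = 0.00750). The rise of Ccr10 in Treg against CD45RBhigh cells ended without Treg replicate 1 (adjusted p = 0.0605) or 2 (adjusted p = 0.0643). Ccr7 was the receptor that fell in Treg against CD45RBhigh cells (-1.01, adjusted p = 2.79e-05).

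Likeness of profile was measured as the root mean square difference between 2 probe sets over the 11 arrays, each centred on its own mean, among the 909 named genes. Xcl1 was nearest to Il4, the cytokine of type 2 helper cells (0.25), then to Ccl5 (0.29) and to Il2, the T cell growth factor (0.35). Ccl5 was nearest to Il4 (0.29), Xcl1 (0.29) and Tgfb3, a TGF-beta cytokine (0.42). Xcl1 was thus the 2nd nearest of 908 genes to Ccl5 and Ccl5 the 2nd nearest to Xcl1. Il4 averaged 3.96, 6.62 and 4.07 and Il2 averaged 3.67, 5.76 and 3.35 in Treg, CD45RBlow and CD45RBhigh cells. In a list of 12 helper cytokines, 10 of them measured, 7 rose and 0 fell between CD45RBlow and CD45RBhigh cells, and 1 rose and 5 fell between Treg and CD45RBlow cells, beside 12.6% and 12.5% of all probe sets. The fall of Il21 ended without any Treg replicate or without CD45RBlow replicate 1 (adjusted p 0.0803 to 0.0937). The rise of Il17a in CD45RBlow against CD45RBhigh cells ended without CD45RBlow replicate 1 or CD45RBhigh replicate 1 or 3 (adjusted p 0.0514 to 0.0699), and with the replicate block Il17a also fell in Treg against CD45RBlow cells (-1.12, adjusted p = 0.0446). Ifng, which encodes interferon-gamma, averaged 6.80, 9.32 and 6.13 in the 3 populations, and did not share the overlap of Cxcl10 between Treg and CD45RBlow cells.

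Cxcl2 was nearest to Sdc4, a heparan sulfate proteoglycan (0.36), Il10, an immunosuppressive cytokine (0.42), and Il1r2, a decoy receptor of interleukin-1 (0.45). These averaged 8.61, 8.68 and 8.82 in Treg cells, 5.30, 6.16 and 6.72 in CD45RBlow cells and 4.87, 5.08 and 5.56 in CD45RBhigh cells. Ccl1 was nearest to Csf1, a growth factor of macrophages (0.18), Tgfbr1, a TGF-beta receptor (0.20), and Fzd6, a Wnt receptor (0.21). Cxcl2 and Ccl1, both highest in Treg cells, were 0.92 apart, and 851 genes lay nearer to Ccl1 than Cxcl2 did, since the measure weighs the size of a change as well as its shape. Cxcl10 was nearest to Bmp7, a bone morphogenetic protein (0.26), Lgals1, a galectin whose probe set may not be specific to 1 transcript (0.26), and Cd44 (0.28). The arrays share their populations and replicate numbers, so likeness describes these 11 arrays and has no test.

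**Figure D4:**
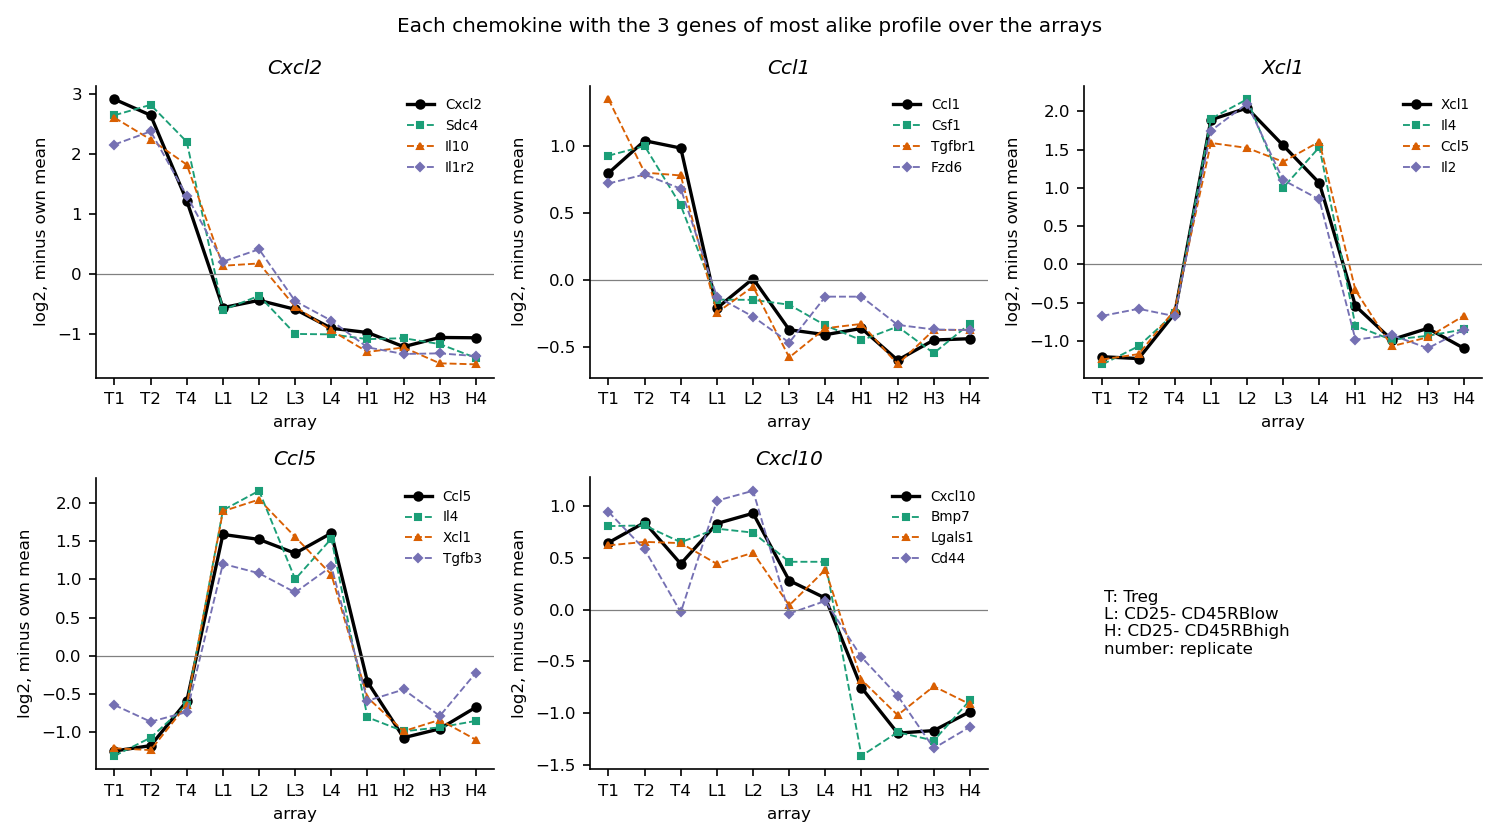
Log2 values minus each gene's own mean (vertical axis) in the 11 arrays (horizontal axis, T for Treg, L for CD45RBlow and H for CD45RBhigh, with the replicate number) for each chemokine in black and its 3 nearest genes in colour. Lines join arrays to guide the eye only. Xcl1 and Ccl5 share the raised CD45RBlow arrays with Il4, and Cxcl2 shares its raised Treg arrays with Sdc4, Il10 and Il1r2, among which replicate 4 lies below replicates 1 and 2.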

How the data were processed

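Total RNA of each sorted sample was amplified, labelled with biotin and hybridised to 1 array, per the labels' protocols. The authors summarised probe sets by Robust Multichip Average, named RMA without a version in the submitters' processing notes, and deposited log2 values. They were used as deposited, with no filter. RefSeq identifiers named 963 of the 1246 probe sets, and 283 had no name here. The array build is not given in the sources used here, and gene positions and promoters come from RefSeq on GRCm38.p6.

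Population means over the 11 arrays were compared in 1 linear model, in R 4.3.3 with limma 3.58.1 (two-sided, Benjamini-Hochberg over 1246 probe sets). The fit was tested on simulated data with arrays drawn independently. The real arrays correlated as given below, so that simulation does not show how the fit errs under such correlation. The 5 genes, the gene lists and the rule for other named genes (up to 4 per list and comparison by smallest adjusted p, fixed receptors, the 3 nearest profiles) were chosen with earlier results of these data known. One gene of the lists is not reported here. Probe sets of Cxcl2 and Cxcl10 carry the suffix a. Deviations of arrays with the same replicate number correlated at 0.31 to 0.56 in 10 of 10 pairs. Different numbers within replicates 1 and 2 or within 3 and 4 also correlated, at 0.20 to 0.58, and numbers across these sets at -0.65 to -0.18, so the likeness is not specific to the number. By the 10 pairs the numbers were taken to pair samples only in alternative fits, such as the one with the replicate block. That pairing rests on the data, although sample titles of one number also end alike. The main fit had no replicate block, so its SEs and p-values ignore any such pairing. Blocked values are printed where they change the call of a gene on the ligand, receptor or cytokine lists. Tables and figures used Python 3.11.15, pandas 2.3.3 and matplotlib 3.10.9.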

Additional observations from a re-analysis of the deposited data

Results flagged for a closer look

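The excess of Cxcl2 in Treg over CD45RBhigh cells differed between replicates 1 and 2 and replicates 3 and 4, by 1.59 on the log2 scale (SE 0.21, adjusted p = 0.0182 for the interaction in limma). It was 3.88 in replicates 1 and 2, with 2 Treg arrays, and 2.28 in replicates 3 and 4, with 1. The p therefore rests on 1 Treg array, which stood apart by its low value and is assumed to vary as the other arrays do. Treg replicate 4 read 5.08, against 2.79 and 2.80 in CD45RBhigh replicates 4 and 3. The interaction was called for 2 of the 1246 probe sets in this comparison. Among the 5 genes no array of a group of 4 lay far enough from the others to be named here, and groups of 3 were not examined in that way.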

How the results depend on the processing

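Each of the 15 differences (5 genes in 3 comparisons) was recomputed under 21 alternatives, 11 of which left out 1 array each. All 10 that passed kept their direction and passed under all 21, and of the 5 that did not pass 4 stayed so. The exception was Cxcl2 between CD45RBlow and CD45RBhigh cells, which passed with only the arrays compared (0.45, adjusted p = 0.0216), within replicates 1 and 2 (0.59, adjusted p = 0.0155) and without Treg replicate 4 (0.45, adjusted p = 0.0179). With 1 array left out it ranged from 0.39 to 0.55, and its adjusted p over all alternatives from 0.0155 to 0.491. The smaller error without Treg arrays follows from leaving out their wide spread. The differences of Xcl1 and Ccl5 between Treg and CD45RBhigh cells, which did not pass, changed sign within replicates 3 and 4 (0.33 and 0.22). With the replicate block 245 probe sets, against 156, passed between Treg and CD45RBlow cells and 271, against 157, between CD45RBlow and CD45RBhigh cells. The block changed no call among the 15. Another probe set of a gene could not be tried, since each had 1. Without detection calls, dim probe sets such as those of Cxcl2 in CD25- cells limit what can be said of low levels.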

Other observations

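Within the CD45RBlow arrays, replicates 1 and 2 read higher than replicates 3 and 4 for Cxcl10 (7.49 and 7.59 against 6.93 and 6.76) and for Xcl1 (9.30 and 9.45 against 8.96 and 8.47). Ccl1 (4.67 and 4.89 against 4.51 and 4.48) and Cxcl2 (3.30 and 3.42 against 3.27 and 2.95) showed the same order by smaller steps. The cytokine gene Ifng did the same, at 9.93 and 9.82 against 8.86 and 8.67, as did Il2, at 6.06 and 6.42 against 5.42 and 5.16. Ccl5 did not follow, at 11.62 and 11.56 against 11.37 and 11.64. These genes were picked out after their values were seen, and the difference between the replicate sets was not tested for them within this population.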
